A study of Rattus norvegicus with 6 samples.

Results

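To follow how the thyroid senses and relays interferon signals in late pregnancy, 9 genes were examined in RNA-seq counts of the thyroid of Sprague-Dawley rats. They are the RNA sensors Ddx58, Ifih1 and Dhx58, the factor Irf3, the receptor chain Ifnar1, and the factors Stat2, Irf9, Irf7 and Irf1. Each was found by its symbol, and the 9 genes made up 9 of the 15388 genes of the tables. The genes were selected on their known roles and with earlier LP against NP results of these same counts in view, so their fold changes are given as a description and not as a test. The groups were non-pregnant females (NP, 3 samples) and females on day 18 of pregnancy (LP, 3 samples), with the day of the vaginal plug as day 1 in the study's methods. Both groups were adult rats of 1 strain, their thyroids were snap-frozen, and no agent, deletion or transgene was named for either. The exact age was not given.

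As background, viral RNA in the cytosol is detected by the RIG-I-like helicases, which signal through an adaptor on mitochondria to kinases that activate IRF3 and IRF7, and these factors switch on type I interferon genes. Secreted interferon binds a receptor made of IFNAR1 and IFNAR2, whose kinases phosphorylate STAT proteins. STAT2 acts with IRF9 in the complex ISGF3, which binds the interferon stimulated response element (ISRE) of many target genes, the antiviral effectors. Several members of the machinery, among them Irf7, Irf9, Ddx58, Ifih1 and Dhx58, are known as targets of interferon themselves. In the thyroid, follicular cells respond to interferon, and thyroid autoimmunity is a known side effect of interferon treatment in patients.

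The counts summed to between 2752144 and 3449857 reads per sample, and a count of 3 reads, used as the floor, equalled 0.87 to 1.09 CPM (reads of a gene per 1000000 reads of the library). This limit covers counting error only. Markers of follicular cells were found in every sample, with thyroglobulin (Tg) at 674258 to 791841 reads. Replicates 2 and 3 of NP (chi-square 1.02 per degree of freedom, p = 0.111), and of LP (0.995, p = 0.667), could not be told apart from sampling noise. They were counted as 1 sample, and n is 2 in each mean ± SD. Nothing in the labels says which samples came from separate animals, so errors and p-values measure only the spread between these samples, which may be technical. The skeletal muscle actin Acta1 had 0 reads in replicate 1 of both groups and 144 to 186 reads in the other samples, and the collagen gene Col1a1 had 850 and 1552 reads in replicate 1 of NP and LP against 2478 to 3540 in the others. Expression was compared with edgeR's quasi-likelihood test on all 6 samples, and all 9 genes were among the 11738 that passed the filter on low counts. This test took replicates 2 and 3 as separate samples, so its standard errors, intervals and p-values may be too small. With replicates 2 and 3 summed, 1511 genes were higher and 1030 lower at an adjusted p below 0.05, against 1794 and 1374.

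Irf7 and Irf9 were more than 2-fold higher in LP, Dhx58 and Ddx58 were just under 2-fold higher, and the other 5 genes did not pass the threshold, with folds of at most 1.31. Of the 9 genes, 4 were higher in LP at an adjusted p-value below 0.05, beside 15.3% of all genes tested, and 2 of these exceeded a 2-fold change, beside 4.9%. None of the 9 was lower at that threshold, beside 11.7% of all genes (0.537% with a 2-fold change). Every LP sample lay above every NP sample for 6 of the 9 genes, beside 21.2% of all genes. Every LP sample lay below every NP sample for 0 of the 9, beside 18.9%. Because the genes were chosen with this contrast known, nothing is read from these counts. The median log2 fold change was 0.39 for the 9 genes and -0.0089 for all genes tested. Bulk tissue was sequenced, so a change in the number of cells of a type and a change in RNA per cell cannot be told apart in any of these values.

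**Figure D1:**
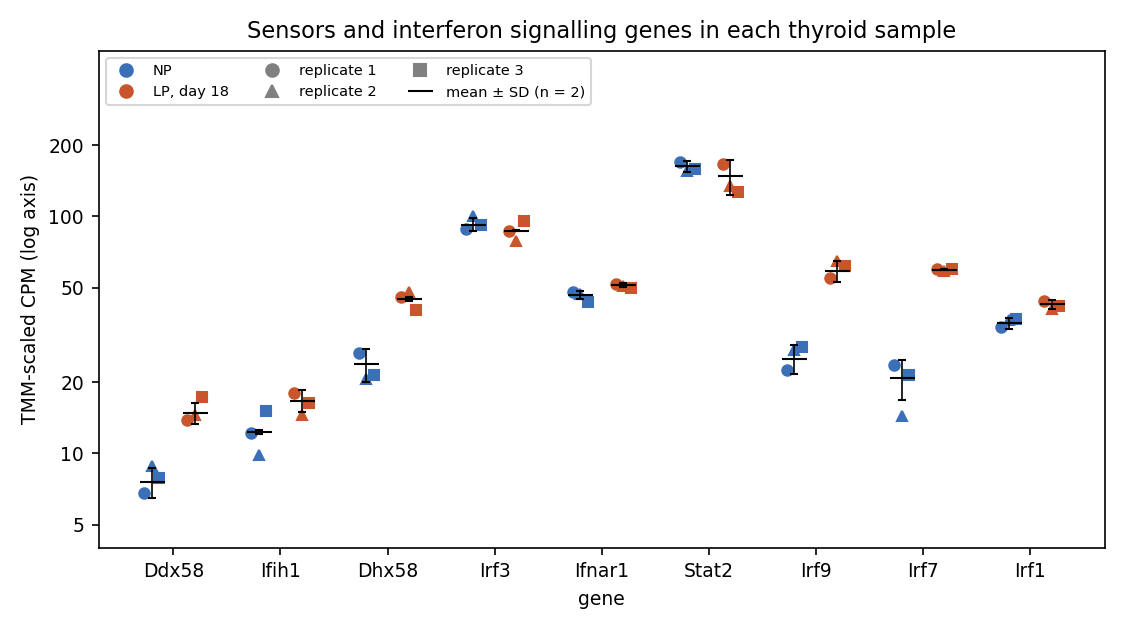
Level of each of the 9 genes in each sample, as CPM scaled by TMM on a log axis, with NP in blue and LP in orange and a symbol for each replicate. Black bars give the mean ± SD with replicates 2 and 3 taken as 1 value (n = 2); Irf7 and Irf9 lie between 14.5 and 28.0 CPM in NP and between 54.8 and 64.6 CPM in LP, and levels of different genes are not comparable because gene length was not used.

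The sensors come first in the pathway. Ddx58 encodes RIG-I, which detects short double-stranded RNA with a triphosphate end. It had 19, 27 and 24 reads in NP replicates 1, 2 and 3 and 43, 49 and 58 reads in LP replicates 1, 2 and 3. The groups did not overlap, and the lowest LP count was above the highest NP count. The level rose from 7.60 ± 1.12 CPM (SD, n = 2) to 14.9 ± 1.52 CPM, or 1.93-fold (log2 0.95, standard error 0.20). With so few reads, Ddx58 had the largest standard error of the 9 genes.

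Dhx58 encodes LGP2, a relative of RIG-I that lacks the signalling domains and modulates the other sensors. NP replicates 1, 2 and 3 held 74, 63 and 65 reads of Dhx58, and the LP replicates held 142, 162 and 135, without overlap. The level rose from 23.8 ± 3.87 CPM (SD, n = 2) to 44.9 ± 0.93 CPM, or 1.96-fold (log2 0.97, standard error 0.12). The values of Dhx58 and Ddx58 differed by 0.022 on the log2 scale, less than the standard error of that difference, 0.23.

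Ifih1 encodes MDA5, the sensor of long double-stranded RNA. It had 34, 30 and 46 reads in NP and 56, 49 and 55 reads in LP. No LP count was below an NP count, but after scaling to library size LP replicate 2 (14.6 CPM) fell below NP replicate 3 (15.2 CPM). The log2 fold change of 0.39 (standard error 0.18) did not pass the threshold. It lay 0.56 below that of Ddx58, where the standard error of the difference was 0.27, or 0.29 with replicates 2 and 3 summed.

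Irf3 is the factor that the sensors activate by phosphorylation of protein already present in the cell. NP replicates held 246, 307 and 279 reads of Irf3, LP replicates held 271, 265 and 322, and the groups overlapped. The log2 fold change was -0.10 (standard error 0.078), with a 95% interval of -0.27 to 0.06. In the RefSeq table Irf3 overlaps Bcl2l12, and whether the counting used strand is not stated, so the counts of Irf3 are uncertain to that extent.

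Ifnar1 encodes a chain of the type I interferon receptor, which also holds IFNAR2. It had 134, 143 and 132 reads in NP and 162, 171 and 168 reads in LP. Scaled to library size the groups did not overlap, but were close, at 46.7 ± 1.98 CPM (SD, n = 2) in NP and 51.2 ± 1.04 CPM in LP. The log2 fold change was 0.14 (standard error 0.084, 95% interval -0.04 to 0.32) and did not pass the threshold.

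Stat2 and Irf9 both encode parts of ISGF3, and their values differed in LP. Stat2 had 472, 472 and 481 reads in NP and 519, 453 and 427 reads in LP. Scaled to library size, LP replicate 1 (166 CPM) lay within the NP range of 155 to 169 CPM, whereas LP replicates 2 and 3 (135 and 127 CPM) lay below it. The log2 fold change of -0.17 (standard error 0.081) did not pass the threshold (edgeR adjusted p = 0.13). A replicate block in the model brought the edgeR adjusted p of Stat2 to 0.00668 at a log2 fold change of -0.18. Scaling by library totals alone brought it to 0.0263 at -0.25, but with replicates 2 and 3 summed it was 0.391 at -0.14. Leaving out LP replicate 1 moved the log2 fold change to -0.30. LP then held only replicates 2 and 3, which count as 1 sample.

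Irf9, the DNA-binding subunit of ISGF3, had 63, 83 and 85 reads in NP and 171, 217 and 208 reads in LP. The groups did not overlap, and all LP samples lay far above all NP samples. The level rose from 25.1 ± 3.57 CPM (SD, n = 2) to 59.0 ± 5.98 CPM, or 2.32-fold (log2 1.22, standard error 0.11).

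Irf7, the factor that amplifies type I interferon production, had the largest fold change of the 9 genes. NP replicates held 66, 44 and 65 reads of Irf7, and LP replicates held 187, 198 and 201. NP replicate 2 was lower than the other NP samples, and all LP samples lay close together. The level rose from 20.8 ± 4.05 CPM (SD, n = 2) to 59.7 ± 0.39 CPM, or 3.01-fold (log2 1.59, standard error 0.13). Irf7 and Irf9 differed by 0.38 on the log2 scale (standard error of the difference 0.17).

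Irf1, a factor induced mainly by interferon gamma, had 95, 111 and 112 reads in NP and 137, 137 and 141 reads in LP. The groups did not overlap, at 35.4 ± 1.86 CPM (SD, n = 2) in NP and 42.7 ± 1.79 CPM in LP. The log2 fold change of 0.23 (standard error 0.095) did not pass the threshold (95% interval 0.03 to 0.43).

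The fold changes were also taken within replicate 1 and within replicates 2 and 3 summed, which are the samples that can be told apart. The log2 fold change of Irf7 was 1.33 in replicate 1 and 1.72 in replicates 2 and 3, and that of Dhx58 was 0.77 and 1.07. Ddx58 gave 1.00 and 0.92, and Irf9 gave 1.27 and 1.19. Each of these 4 genes was thus higher in LP in both. Ifih1 (0.55 and 0.31) and Irf1 (0.36 and 0.17) were further apart in relation to their size, and Stat2 moved from -0.02 to -0.26. The order of the fold changes was Irf7, Irf9, Dhx58, Ddx58, Ifih1, Irf1, Ifnar1, Irf3 and Stat2. Neighbours were set by these same fold changes, and each standard error of a difference took the genes as independent. The genes were measured in the same samples, so the comparisons of neighbours are a description and not a test. Among neighbours in this order, Irf7 and Irf9, and Ifnar1 and Irf3, differed by more than 2 standard errors both in the model of 6 samples and with replicates 2 and 3 summed. Ddx58 and Ifih1 did so in the model of 6 samples but not with replicates 2 and 3 summed (difference 0.54, standard error 0.29), and the other 5 neighbouring pairs did so in neither.

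**Figure D2:**
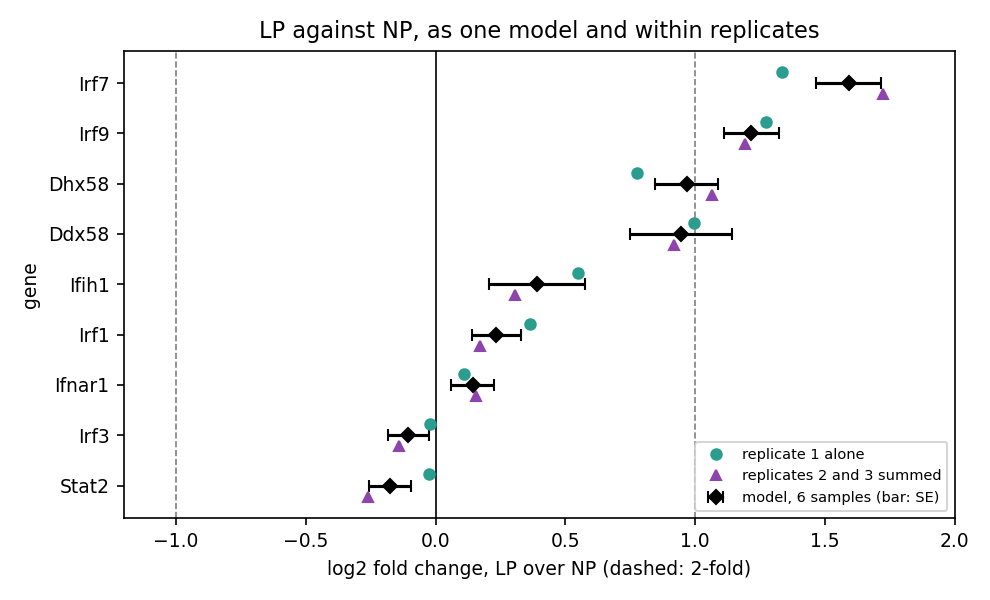
Log2 fold change of LP over NP for each of the 9 genes, from the edgeR model on 6 samples (diamond, bar for the standard error), from replicate 1 alone (circle) and from replicates 2 and 3 summed (triangle). Irf7 and Irf9 lie past the dashed line of a 2-fold change in all 3, and Dhx58 lies at 0.77 in replicate 1 and at 1.07 in replicates 2 and 3.

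Because ISGF3 and the IRF factors bind a known motif, the promoters of the 9 genes were searched in the RefSeq table of rat promoters (GRCr8, 250 bases before to 50 bases after the start). This build is not the one on which the reads were counted, and no coordinate of the counts was used. A promoter was listed for 7 genes and not for Ddx58 and Dhx58. The ISRE core was taken as GAAANNGAAA, a pair of GAAA repeats, and the gamma activated site (GAS) of STAT dimers as TTCNNNGAA, both searched on both strands without mismatch. Irf7 and Ifih1 held 1 ISRE core each, on the other strand in Irf7, and the motif occurred in 3.77% of the 27457 promoters of the table. Irf9 and Irf1 held 1 GAS each, a motif found in 8.68% of promoters. Irf3, Stat2 and Ifnar1 held neither in this window.

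The 150 bases before the start are shown for the 4 genes with a motif, 5′ to 3′ on the strand of the gene, because Irf7 and Irf9, the members past 2-fold, held different motifs and Ifih1, which did not pass the threshold, held the same motif as Irf7. Capitals mark the ISRE core in Irf7 (chr1:205800024-205800173, minus strand) and Ifih1 (chr3:67683969-67684118, minus strand), and the GAS in Irf9 (chr15:33065686-33065835, plus strand) and Irf1 (chr10:38417785-38417934, plus strand).
Irf7: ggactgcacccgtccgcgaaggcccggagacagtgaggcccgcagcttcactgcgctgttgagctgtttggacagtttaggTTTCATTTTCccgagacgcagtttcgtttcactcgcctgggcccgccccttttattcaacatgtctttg
Ifih1: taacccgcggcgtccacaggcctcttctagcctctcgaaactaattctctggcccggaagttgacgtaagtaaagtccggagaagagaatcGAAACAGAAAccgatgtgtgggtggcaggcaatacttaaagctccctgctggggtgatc
Irf9: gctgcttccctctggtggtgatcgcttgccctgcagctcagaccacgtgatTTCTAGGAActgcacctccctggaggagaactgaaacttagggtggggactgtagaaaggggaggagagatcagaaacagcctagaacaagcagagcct
Irf1: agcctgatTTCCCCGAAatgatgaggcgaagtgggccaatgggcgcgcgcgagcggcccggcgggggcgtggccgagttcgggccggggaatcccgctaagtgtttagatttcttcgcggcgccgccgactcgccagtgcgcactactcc
The ISRE core began 69 bases before the start in Irf7 and 59 bases before it in Ifih1, and the GAS 99 bases before it in Irf9 and 142 bases before it in Irf1. The start used for Irf7 lies 520 bases, and that for Irf9 414 bases, inside the longest RefSeq span of the gene. A match is a run of letters and not a measured binding site. Irf7 and Irf9 were 3.01-fold and 2.32-fold higher in LP, whereas Ifih1 was 1.31-fold and Irf1 1.18-fold higher without passing the threshold.

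**Figure D3:**
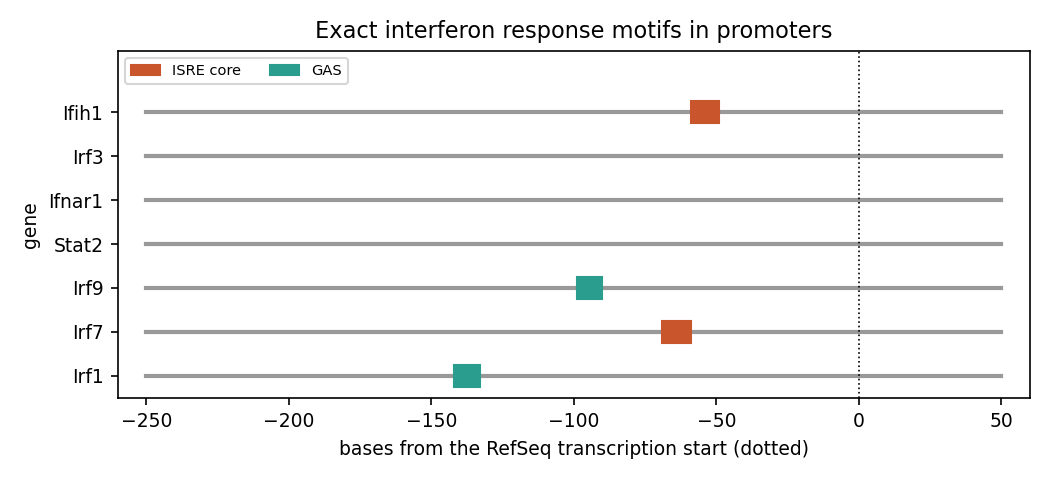
Position of exact motif matches in the promoters of the 7 genes listed by RefSeq, in bases from the transcription start, with the ISRE core in orange and the GAS in green. Irf7 and Ifih1 hold 1 ISRE core each within 70 bases before the start, Irf9 and Irf1 hold 1 GAS each, and Irf3, Ifnar1 and Stat2 hold none.

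Other genes of the pathway were then examined from a fixed list. Of 51 genes tested outside the antiviral effectors, 15 were higher and 4 were lower in LP (edgeR adjusted p below 0.05) and 32 did not pass, beside 15.3% higher and 11.7% lower of all genes tested, which is also the background of the lists that follow. Their median log2 fold change was -0.011, close to the -0.0089 of all genes. With replicates 2 and 3 summed, edgeR called 11 higher and 3 lower, and DESeq2 on the 6 samples called 7 higher and 1 lower. Among the other nucleic acid sensors, 2 of the 4 tested were higher, namely Eif2ak2, which encodes the kinase PKR that halts translation (0.54, standard error 0.090, adjusted p = 0.000191), and Tmem173, which encodes STING (0.58, standard error 0.20, adjusted p = 0.0382). The edgeR adjusted p of Tmem173 was 0.0847 with replicates 2 and 3 summed. It lay between 0.0937 and 0.171 without NP replicate 2, NP replicate 3 or LP replicate 3. Nlrx1, a mitochondrial modulator of the pathway, had a log2 fold change of 0.12 and did not pass.

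Of 16 adaptors and kinases between the sensors and the factors, 4 were higher and 0 lower. Trim25, a ubiquitin ligase that activates RIG-I, had 133, 133 and 114 reads in NP and 186, 207 and 208 reads in LP (0.51, standard error 0.091, edgeR adjusted p = 0.000363). Traf6 had the largest value of the group (0.71, standard error 0.23, adjusted p = 0.03, but 0.0577 with replicates 2 and 3 summed). Without NP replicate 2 or LP replicate 3 the edgeR adjusted p of Traf6 was 0.126 and 0.195, and its log2 fold change without LP replicate 3 was 0.47. The kinase gene Ikbke had 0.53 and did not pass (adjusted p = 0.0627, and 0.0461 with the replicate block). Mavs, the mitochondrial adaptor of RIG-I and MDA5, named here after its values were seen, was higher with 126, 131 and 134 reads in NP and 196, 178 and 185 reads in LP (0.37, standard error 0.090, adjusted p = 0.00524, but 0.0641 with DESeq2). Tbk1, the kinase of IRF3, also named after its values were seen, had a log2 fold change of -0.04 and an adjusted p of 0.872.

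Among the 8 other receptor chains and JAK kinases, Jak2, which serves the interferon gamma receptor, was higher (0.50, standard error 0.078, edgeR adjusted p = 9.8e-05). Ifngr1, the ligand-binding chain of that receptor, was lower (-0.29, standard error 0.077, adjusted p = 0.00874, but 0.102 with DESeq2). Ifngr2 (0.29) and the other 5 genes did not pass. Ifnar2, the partner of Ifnar1 and named after its values were seen, had a log2 fold change of -0.04.

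Of 9 other STAT and IRF factors tested, 3 were higher and 2 were lower. Stat5b was higher by 0.49 (standard error 0.13, edgeR adjusted p = 0.0101, but 0.0573 with DESeq2), and did not pass without NP replicate 2 (0.0552) or LP replicate 2 (0.0675). Irf8, a factor known from myeloid cells and B cells, fell most of the genes tested in the list, from 482, 460 and 461 reads in the NP samples to 257, 293 and 267 in the LP samples. This was a change of -0.93 on the log2 scale (standard error 0.068, edgeR adjusted p = 8.45e-09), opposite in sign to that of Irf7 of the same family.

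Of 14 negative regulators tested, 5 were higher and 1 was lower. Usp18, which encodes a protease that removes ISG15 and blocks the type I receptor, was the 1 gene past a 2-fold change among these 51. It had 23, 32 and 34 reads in NP and 87, 109 and 90 reads in LP, higher by 1.53 on the log2 scale (standard error 0.16, edgeR adjusted p = 9.63e-07), close to that of Irf7. Nlrc5 had 0.94 (standard error 0.29, adjusted p = 0.0211, but 0.0512 with replicates 2 and 3 summed) with at most 31 reads in a sample. Without NP replicate 3 the edgeR adjusted p of Nlrc5 was 0.0747. Ptpn2, a phosphatase of JAK and STAT proteins, had -0.55 and did not pass (adjusted p = 0.0507, 0.0175 with the replicate block and 0.102 with replicates 2 and 3 summed).

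The antiviral effectors lie downstream of these 9 genes. Of 39 effectors tested, 27 were higher in LP, beside the 15.3% of all genes given above, and 0 were lower, with a median log2 fold change of 0.70. A total of 15 passed a 2-fold change, namely Rtp4, Ifi27l2b, Oasl2, Ifi27, Mx2, Oas1k, Ifit3, Oas1a, Cxcl10, Lgals9, Oasl, Ifi44, Isg15, Cmpk2 and Herc6, with folds between 2.10 for Herc6 and 3.50 for Rtp4. This list was written with results of the same samples known and is not independent evidence, and the Oas genes are close copies whose reads could be split between them. Some folds rest on few reads, as in Rtp4 with 11, 14 and 17 reads in NP (log2 standard error 0.23) and Ifit3 with 11, 9 and 6. Ifi27 had 445, 490 and 481 reads in NP. An ISRE core was present in 23 of the 35 effectors with a listed promoter, or 65.7%, against 3.77% of all promoters. The share was 2.93% for the genes counted here and 8.16% for the other pathway genes. The effectors were listed as known targets of interferon, so this share describes the list and not LP.

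**Figure D4:**
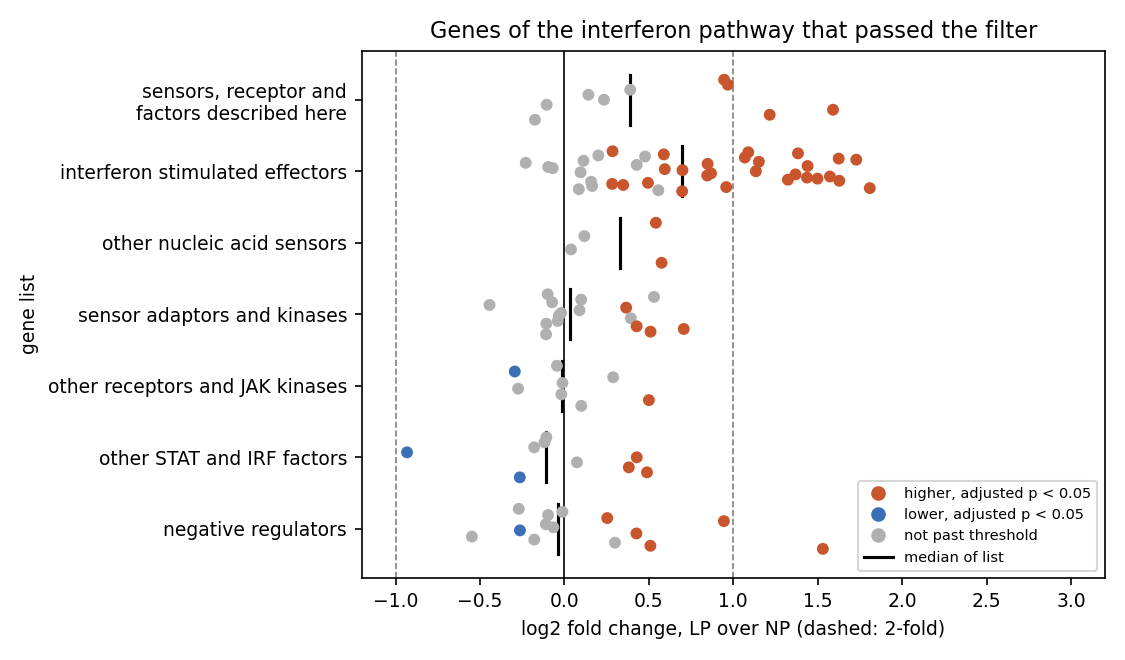
Log2 fold change of LP over NP for every gene that passed the filter in the 9 genes described here, in the antiviral effectors and in 5 further pathway lists, with genes past an adjusted p of 0.05 in orange (higher) or blue (lower) and the median of each list as a black line. The effectors have a median of 0.70 and the STAT and IRF factors a median of -0.11, where the point near -0.93 is Irf8.

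Markers of other cells that the tissue could hold were read beside these values. Summed CPM of the 4 leukocyte markers was 39.1 to 44.4 in NP and 38.5 to 43.8 in LP, and 0 of the 3 tested passed the threshold. The 7 macrophage markers summed to 142 to 160.4 CPM in NP and 158 to 182.9 CPM in LP, and 0 of 7 passed the threshold. Of these, C1qa (log2 0.33, edgeR adjusted p = 0.0586) passed with the replicate block (0.00745) and with replicates 2 and 3 summed (0.0344). The 7 T and NK cell markers summed to at most 18.3 CPM in NP and 16.7 CPM in LP, most of it from Cd4. The 4 neutrophil markers summed to at most 2.31 CPM in NP and 4.76 CPM in LP. Of these, S100a8 was at 0 in every NP sample and had 0, 2 and 0 reads in LP replicates 1, 2 and 3, below the floor. Other markers differed between the groups. Of 8 skeletal muscle markers 7 were higher in LP, with sums of 6.81 to 62.5 CPM in NP and 2544 to 2679 CPM in LP. All 3 airway markers were higher, from sums of 2.51 to 5.93 CPM to 21.7 to 22.1 CPM. Of 3 endothelial markers 2 were lower, with sums of 320.8 to 329.2 CPM in NP and 264.9 to 277 CPM in LP. Of 8 markers of follicular cells, Slc5a5, the iodide transporter (-0.94, edgeR adjusted p = 3.08e-10), and Tshr, the receptor of thyrotropin (-0.68, adjusted p = 3.99e-07), were lower, and Nkx2-1 (0.28, adjusted p = 0.0021) and Duox2 (0.29, adjusted p = 0.00947) were higher. The C cell marker Calca (-0.32, edgeR adjusted p = 3.65e-08), the parathyroid marker Pth (-0.30, adjusted p = 3.42e-06) and the fibroblast marker Dcn (-0.20, adjusted p = 0.0468, but 0.138 with replicates 2 and 3 summed) were lower. The scaling was repeated without the muscle markers, Tg and the genes called with a fold change above 2. The same 4 of the 9 genes were then called higher. That rescaling moved the log2 fold changes of all genes by a median of 0.023. It changes all genes alike and cannot show which tissue the reads of a gene came from. The part of the muscle, airway, endothelial, follicular, C cell, parathyroid, fibroblast and macrophage markers in the values of the 9 genes was not tested. Of all genes called, 56.6% were higher in LP, and 40.5% with library totals alone.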

How the data were processed

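Thyroid RNA of NP and LP rats was extracted with TRIzol, and libraries were made with the TruSeq kit and sequenced on an Illumina HiSeq instrument. The authors mapped reads to rn5 with TopHat 1.4.0 and counted them on Ensembl gene models with HTSeq-count. The deposited values are raw counts, 1 table per sample. Whether counting used strand is not given in the sources used here.

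LP was compared with NP in edgeR 4.0.16 (R 4.3.3, limma 3.58.1) by glmQLFit and glmQLFTest, with TMM and the filterByExpr defaults, and p-values were adjusted over 11738 genes by Benjamini-Hochberg, in place of the study's DESeq. A standard error is the size of a log2 fold change over the root of its F statistic. Ratios within replicates used a pseudocount of 0.5 reads. The 9 genes and all lists were chosen with earlier results of these data known. Named pathway genes are those past 2-fold and the 3 largest of each list. Interferon ligands were not analysed here, and 2 listed genes are not reported here. Pairing by replicate number was checked by the correlation across genes of deviations from group means, which was 0.481, 0.215 and 0.181 for pairs of the same number, and 0.209 for replicates 2 and 3 of different number. Pairs of replicate 1 with replicate 2 or 3 of the other group lay between -0.327 and -0.3. Replicates 2 and 3 of a group were alike, and deviations were taken from group means, so these values are not separate observations. They do not show a pairing beyond replicate 1 against the others. Every pair of the same number was over 0.1, so the block was printed where it changed a call. However, the block lowered edgeR's coefficient of variation from 0.0645 to 0.0131. On simulated counts, edgeR recovered 90% of genes changed 2-fold and 100% of those changed 4-fold over 11727 genes. Alternatives were the block, replicates 2 and 3 summed, each replicate left out, other filters and scalings, DESeq2 1.42.0, an adjusted p below 0.01, and 1 mismatch in the motif. Leaving out replicate 1 of a group left only replicates 2 and 3 there, counted as 1 sample, so no p-value of such a fit is printed.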

Additional observations from a re-analysis of the deposited data

How the results depend on the processing

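Of 142 values of the 9 genes under 16 alternatives, 138 kept their direction and their side of the threshold, and none changed sign. The 4 others were all Stat2, which was called lower (1 gene against 0) with the replicate block, with replicates 2 and 3 summed and the replicate block, with library totals alone, and without LP replicate 1 (0 to 1 over the samples left out). Without LP replicate 1, LP held only replicates 2 and 3, counted as 1 sample, so that call rests on 1 sample of LP. The block changed no other call among the 9 genes. The alternative of an adjusted p below 0.01 used the main fit, so its values were not recomputed and could not change sign. Leaving out replicate 2 or 3 of a group kept the other of these like samples. Other pathway genes called higher were 7 with DESeq2 and 8 at an adjusted p below 0.01, against 15. Those called lower were 1 and 2, against 4, with 11 for library totals alone and 2 to 4 with each replicate left out, the lowest without NP replicate 2. When genes with means under 50 reads were dropped, effectors called higher were 16, against 27, and all genes past 2-fold were 286 higher and 29 lower, against 575 and 63. Fewer genes were tested there. All genes called lower were 2146 with library totals alone, 703 with DESeq2 and 797 at an adjusted p below 0.01, against 1374. The cause of these changes was not tested. Depth limits Ddx58 and Ifih1 most, which had at most 58 reads in a sample. With 1 mismatch allowed, 3 of the 7 promoters held the ISRE core, against 37% of all promoters.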
